A study of Homo sapiens with 4 samples.

Results

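SOS1, SOS2, NRAS, HRAS, MRAS, RRAS, RRAS2, NF1 and RASA1 are 9 genes of the step that switches RAS proteins on and off. They were taken by gene name from a table of 32955 genes measured by RNA-seq, and all 9 were found there. RAS proteins are small GTPases at the inner face of the plasma membrane that are active while they hold GTP and inactive while they hold GDP. SOS1 and SOS2 are the guanine nucleotide exchange factors that load them with GTP after growth factor receptors recruit GRB2, whereas NF1 (neurofibromin) and RASA1 (p120 RasGAP) are brakes that speed up the hydrolysis of GTP. NRAS and HRAS are classical RAS proteins, while MRAS, RRAS and RRAS2 (TC21) are close relatives. In breast cancer, the genes of RAS itself are seldom mutated and the switch is often driven from upstream receptors.

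The 4 libraries came from MDA-MB-231, an established human cell line of triple-negative breast cancer. The control group was 2 libraries given mimic NC (an oligonucleotide with no intended target), and the other 2 libraries were given miR-217 mimic (a synthetic RNA that stands in for the mature miRNA), both by transfection. Both groups carried the replicate numbers 1 and 2, and the labels do not say what a number marks, such as a day or a culture, so p-values measure only the spread between these samples, which may be technical. The study asked which transcripts fall with miR-217, and it picked SOS1 for follow-up partly from these libraries, so the values of SOS1 are no independent evidence of its direction. It also concerns a circular RNA made from exons 2 to 8 of NF1, so that both ends of the proposed axis, the host gene of the circle and the target of the miRNA, are among the 9 genes.

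To show where miR-217 could pair with these transcripts, the mature miRNA and the closest matches are printed here. The mature sequence hsa-miR-217-5p is from RefSeq (GRCh38.p14, chr2:55983020-55983042, minus strand), with the seed, bases 2 to 8, in capitals.
hsa-miR-217-5p: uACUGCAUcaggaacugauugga
The strand of the transcript was searched for ATGCAGT (the reverse complement of the seed, a 7mer-m8 match), ATGCAGTA (an 8mer), TGCAGTA (a 7mer-A1) and TGCAGT (a 6mer), each longer match holding the shorter ones, in the longest annotated 3'UTR of each gene (GENCODE 29, GRCh38). SOS1 and NF1 were the members with an 8mer, and their 8mer and 7mer windows are shown in transcript orientation with the match in capitals, because no other member had a match over 6 bases.
SOS1, first 8mer: taacgactcttcttcaagATGCAGTAtaag
SOS1, 7mer-A1: ctataatgtctgtgaaatgTGCAGTAttcc
SOS1, second 8mer: ggtttggctgaaagaattATGCAGTAaagt
NF1, 7mer-m8: cttagttgcccagatggagATGCAGTtcag
NF1, 8mer: gccacacaattttttttaATGCAGTAtatt
The 8mers of SOS1 lay 125 and 3376 bases after the stop codon, at chr2:38985692-38985699 and chr2:38982441-38982448 on the minus strand, both in the last exon. The 8mer of NF1 lay 3031 bases after the stop codon, at chr17:31377186-31377193 on the plus strand. Of 9913 tested genes with an annotated 3'UTR, 364 (3.67%) had an 8mer, 26 (0.262%) had 2 or more as SOS1 did, and 1440 (14.5%) had a 7mer-m8. The study chose SOS1 partly because databases predict it as a target of miR-217, so its matches are no independent evidence of pairing. The 3'UTRs of SOS1 (4428 bases) and NF1 (3522 bases) were long beside a median of 1326 bases, and a longer region holds more matches. NRAS and MRAS had 1 6mer each, a match found in 47.6% of the 9913 genes, and SOS2, HRAS, RRAS, RRAS2 and RASA1 had none. In the coding sequence, NF1 held 2 matches to the 7mer-m8 and no other member held one. Of these, 1 lay within exons 2 to 8 of its longest coding mRNA (7 exons, 828 bases, chr17:31155983-31182665), in exon 4 at chr17:31163349-31163355, and it is shown because these are the exons the study names for the circle.
NF1, exon 4: ctcagctgcaacaacttcaATGCAGTcttt
The match is a description of the letters, and pairing was not measured in these libraries. The study chose miR-217 from miRNAs that databases predict to bind the circle, so this match is no independent evidence of binding. It also reports luciferase reporters, wild type and with the site mutated, for the circle and for the 3'UTR of SOS1, which were not examined here.

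**Figure D1:**
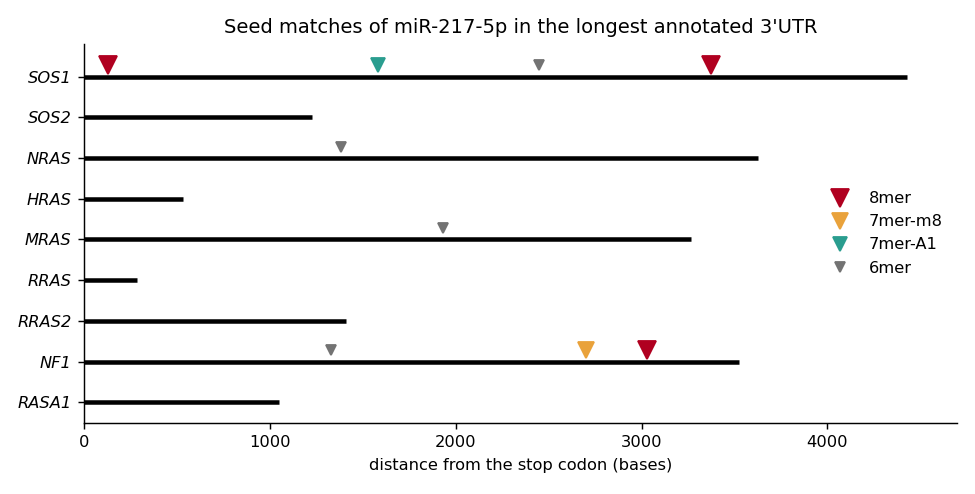
Seed matches of miR-217-5p along the longest annotated 3'UTR of each gene, with the distance from the stop codon in bases on the x axis, 1 line per gene and triangles for the kind of match. SOS1 carries 2 8mers, NF1 carries 1 8mer and 1 7mer-m8, NRAS and MRAS carry a 6mer only, and the other 5 genes carry none.

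The deposited values were RPKM, the reads on a gene divided by the summed length of its exons and by the reads on all genes. The control libraries held 57933183 and 47374957 reads and the mimic libraries 53356283 and 32635814, so that the second mimic library was the least precise. Over the 13871 genes tested, those whose RPKM averaged 1 or more, the first principal component held 71.3% of the variance. Over the same genes, the median absolute difference on the log2(RPKM + 1) scale was 0.17 between the numbers but 0.09 between the treatments. The hormone receptor gene ESR1 was at 0.029 to 0.076 RPKM, and VIM, a mesenchymal intermediate filament gene, was at 27.9 to 36.9. KRT8, a keratin of luminal cells, was at 154 to 421 RPKM, CDKN2A, which is usually reported lost from MDA-MB-231, was at 10.5 to 13.2, and the identity of the cells was not tested.

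All 9 genes were expressed, at levels that spread from about 1 RPKM to over 20. The order of the mean levels over the 4 libraries was HRAS (21.4 RPKM), RRAS (16.5), NRAS (10.5), RRAS2 (10.2), SOS1 (6.59), RASA1 (4.62), MRAS (3.22), SOS2 (1.74) and NF1 (1.00). Each gene was above the next in all 4 libraries, with the exception of NRAS and RRAS2, whose ranges overlapped and of which NRAS was higher in 2 of 4 libraries. HRAS, the highest, stood at the 83.5th percentile of the genes tested. NF1 lay just above the minimum for testing, a mean of 1 RPKM. Its table length was 26685 bases, the sum of all annotated exons, whereas its longest coding mRNA had 12425 bases, and with reads divided by the mRNA length NF1 was at 1.98 to 2.27. On that scale RRAS2 (23.2 on average) moved above RRAS (18.4) and NRAS (10.4), but it was below RRAS in both libraries of number 1 (18.0 and 20.3 against 21.1 and 22.7). The order of the other means was the same, although SOS2 was below NF1 in 2 of 4 libraries. Fewer cells that express a gene and less RNA per cell cannot be told apart in these bulk samples.

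**Figure D2:**
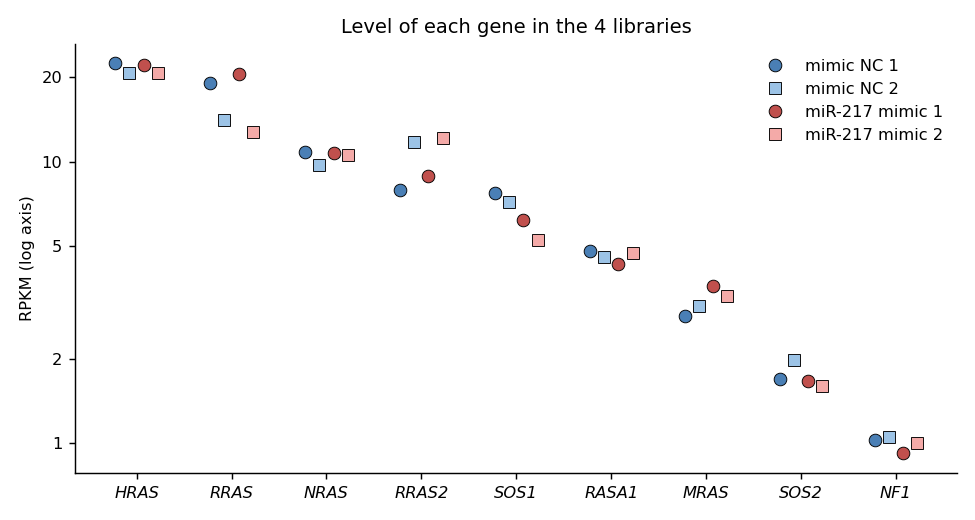
RPKM (log axis) of the 9 genes in each of the 4 libraries, ordered by mean level; circles are libraries of number 1 and squares those of number 2, in blue for mimic NC and red for miR-217 mimic. SOS1 is lower in both mimic libraries (6.18 and 5.26) than in both control libraries (7.74 and 7.19), whereas RRAS and RRAS2 separate by number.

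With miR-217 mimic, SOS1 had the largest difference of the 9 genes, and it was lower. Next came MRAS, which was higher, and SOS2, which was lower. The other 6 genes differed by less than 0.10 on the log2 scale. None of the 9 passed an adjusted p of 0.05 (limma, two-sided, Benjamini-Hochberg over 13871 genes), a call made for 0 of the 13871 genes (0%), and none passed an unadjusted p of 0.05, which 165 genes (1.19%) did. With limma voom on the recovered reads, no gene passed at an adjusted p and 82 genes, SOS1 among them, passed at an unadjusted p of 0.05. Both mimic libraries lay below both control libraries for 3 of the 9 genes (SOS1, SOS2 and NF1) and above them for 1 (MRAS), where over all genes tested 13.5% lay below and 9.72% above. With 9 genes, these counts say little about the group as a whole.

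SOS1 (chr2:38981396-39124345, minus strand, hg38), the main exchange factor for RAS downstream of receptor tyrosine kinases, was at 7.74 and 7.19 RPKM in the control libraries 1 and 2, from 4151 and 3155 reads. In the mimic libraries it was at 6.18 and 5.26 RPKM, from 3055 and 1590 reads. The groups did not overlap, and the lowest level was in the smallest library. The means of 7.46 ± 0.39 and 5.72 ± 0.65 (SD, n = 2 each) differed by -23.3%, with -20.1% within number 1 and -26.8% within number 2. On the log2(RPKM + 1) scale the difference was -0.34 (SE 0.13, 95% interval -0.68 to 0.01), with an unadjusted p of 0.0526 and an adjusted p of 1 by limma. Of the 13871 genes tested, 395 had a lower difference than SOS1. Without the second mimic library the difference was -0.24, and its adjusted p ranged from 0.321 to 1 over the alternative fits.

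SOS2 (chr14:50117120-50231558, minus strand), the second exchange factor of the family, was at 1.70 and 1.98 RPKM with mimic NC and at 1.67 and 1.60 with the mimic, from 362 to 682 reads per library. The groups did not overlap, but the first library of each group differed by only 0.03 RPKM, so that the difference of -11.1% came mainly from number 2 (-19.2%, compared with -1.77% in number 1). The log2 difference was -0.11 (SE 0.12) and its interval ran from -0.43 to 0.22, and it was -0.03 without the second control library and -0.18 without the first. SOS1 and SOS2 together were at 9.43 and 9.17 RPKM in the control libraries and at 7.85 and 6.86 in the mimic libraries, with no overlap and an exact permutation p of 0.333, the smallest that 2 libraries against 2 can give.

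The genes with a profile most like that of SOS1 over the 4 libraries, by the root mean square of centred log2(RPKM + 1) among 9236 genes with at least 500 reads on average, were SNX33, a sorting nexin (0.016), IGFBP6, a secreted binding protein for insulin-like growth factors (0.017), and IFT20, an intraflagellar transport protein (0.018). SNX33 was at 4.65 and 4.18 RPKM with mimic NC and at 3.64 and 3.07 with the mimic. With 4 libraries such likeness rests on few points.

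Among the classical RAS proteins, NRAS (chr1:114704469-114716894, minus strand) was at 10.8 and 9.75 RPKM with mimic NC and at 10.7 and 10.5 with the mimic. The mimic values lay between the control values, with a log2 difference of 0.04 (95% interval -0.27 to 0.35). HRAS (chr11:532242-537287, minus strand) was at 22.3 and 20.7 RPKM with mimic NC and at 22.0 and 20.5 with the mimic. It was the steadiest of the 9 genes: its highest library was 1.08 times its lowest, and its difference was -0.89%, with -1.0% within number 1 and -0.78% within number 2. The log2 difference of HRAS was -0.01 and changed sign with median centring, and its interval, -0.33 to 0.30, does not show that the groups were alike.

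MRAS (chr3:138347648-138405534, plus strand), a RAS relative that forms a phosphatase complex with SHOC2 and so helps to activate RAF, was at 2.83 and 3.08 RPKM with mimic NC and at 3.60 and 3.34 with the mimic, from 693 to 1224 reads. Both mimic libraries were above both control libraries. The means were 2.96 ± 0.18 and 3.47 ± 0.19 (SD, n = 2 each), a difference of 17.3%, with 27.2% within number 1 and 8.17% within number 2. The log2 difference was 0.18 (SE 0.12, 95% interval -0.13 to 0.48, adjusted p of 1 by limma), which ranked 1066 from the highest of the 13871 genes. RRAS (chr19:49635292-49640201, minus strand), a relative linked to integrin adhesion, was at 19.0 and 14.0 RPKM with mimic NC and at 20.5 and 12.7 with the mimic. RRAS2 (chr11:14277926-14364506, minus strand), which activates many of the effectors of classical RAS, was at 7.92 and 11.8 RPKM with mimic NC and at 8.90 and 12.1 with the mimic. In both genes the libraries paired by number and not by treatment, and the log2 differences with the mimic were -0.02 (95% interval -0.73 to 0.70) for RRAS, with the opposite sign under median centring, and 0.09 (-0.53 to 0.72) for RRAS2.

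Of the brakes, NF1 (chr17:31094927-31382116, plus strand) was at 1.03 and 1.06 RPKM with mimic NC and at 0.92 and 1.00 with the mimic. The groups did not overlap, and the difference was -7.52%, with -10.2% within number 1 and -4.93% within number 2. The log2 difference of NF1 was -0.06 (SE 0.12, 95% interval -0.37 to 0.25, adjusted p of 1 by limma), which on the log2(RPKM + 1) scale understates the change of a gene at this level. The table holds 1 value per gene, so a linear and a circular transcript of NF1 cannot be told apart. Pseudogene copies named NF1P held at most 2 reads in any library, and exons of 3 genes on the opposite strand, among them EVI2A, shared at most 152 bases (0.57%) with those of NF1. RASA1 (chr5:87267888-87391931, plus strand) was at 4.82 and 4.58 RPKM with mimic NC and at 4.34 and 4.74 with the mimic. The groups overlapped and the direction differed between the numbers (-9.94% and 3.38%). Its exons shared 438 bases (8.37%) with those of CCNH on the opposite strand, a gene at 6.21 to 8.49 RPKM, and 333 bases (6.36%) with CTC-428H11.2, and whether counting used the strand is not stated.

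The members with an 8mer, SOS1 and NF1, were both lower in both mimic libraries, as were 13.5% of all genes tested. The study picked SOS1 partly from these libraries. The log2 difference of NF1 was only -0.06, at the 37.3rd percentile of the genes tested, counted from the lowest. SOS2, which was also lower in both, had no match in its 3'UTR, and MRAS, which was higher in both, had a 6mer there. In the coding sequence SOS1 and SOS2 held 2 6mers each, NF1 held 4, RRAS and RASA1 held 1 each, and the other members held none. With only 2 members that carry an 8mer, no test of the matches against the levels was made.

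**Figure D3:**
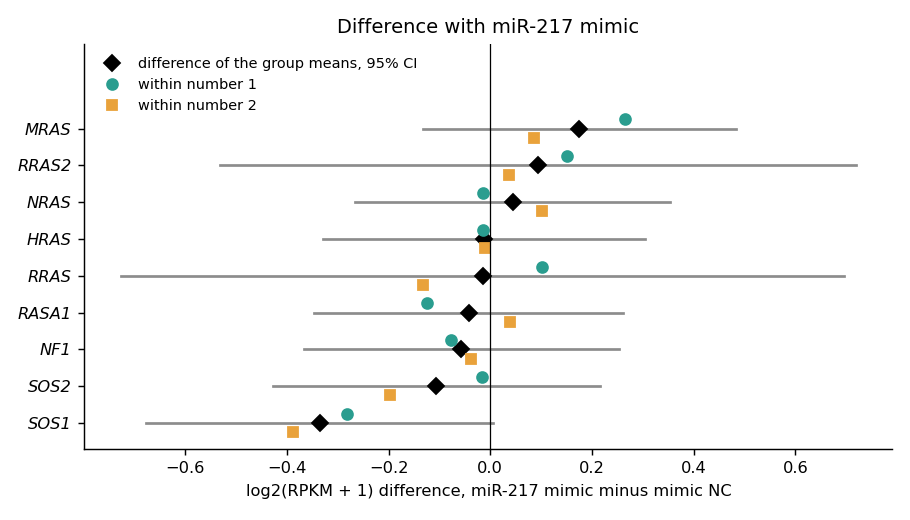
Difference in log2(RPKM + 1) between miR-217 mimic and mimic NC for each gene. Diamonds with grey lines are the difference of the group means with its 95% interval from limma without a replicate term. Circles are the difference within number 1 and squares that within number 2. In this fit the interval of every gene includes 0, and for SOS1 it runs from -0.68 to 0.01.

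Proportions among genes of the same kind were then compared, as each gene's percent of the summed RPKM. SOS1 made up 82.0% and 78.4% of SOS1 + SOS2 with mimic NC and 78.8% and 76.7% with the mimic. The second control library lay between the mimic libraries, and the means of 80.2 ± 2.53% and 77.7 ± 1.47% (SD, n = 2 each) differed by -2.49 percentage points (exact permutation p of 0.667, where 0.333 is the smallest possible). This difference was -0.70 without the first control library and -4.29 without the second. SOS1 was thus 3.29 to 4.56 times as high as SOS2. The 5 RAS proteins among the members are not all of the RAS proteins, so their shares hold only among these 5. HRAS took 35.4% and 34.9% with mimic NC and 33.6% and 34.7% with the mimic, with no overlap and an exact permutation p of 0.333. NRAS took 16.3% to 17.8%. MRAS took 4.51% and 5.20% with mimic NC and 5.48% and 5.64% with the mimic, with no overlap and an exact permutation p of 0.333. RRAS took 30.2% and 23.6% with mimic NC and 31.1% and 21.5% with the mimic. RRAS2 took 12.6% and 19.9% with mimic NC and 13.6% and 20.4% with the mimic. The RRAS to RRAS2 ratio was 2.40 and 2.30 in the libraries of number 1 and 1.19 and 1.05 in those of number 2. The summed RPKM of the 5 RAS proteins ranged from 59.2 to 65.7, and the groups overlapped.

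Of the brakes, NF1 made up 17.6% and 18.7% of NF1 + RASA1 with mimic NC and 17.5% in both mimic libraries, with no overlap and an exact permutation p of 0.333. SOS1 + SOS2 summed to 1.61 and 1.62 times NF1 + RASA1 in the control libraries and to 1.49 and 1.19 times in the mimic libraries (exact permutation p of 0.333). The lowest ratio was again in the smallest library. NF1 and RASA1 are not all of the brakes, so this ratio does not compare exchange factors with brakes as a whole. RASA3, another GTPase-activating protein, was at 23.6 and 26.5 RPKM with mimic NC and at 23.3 and 25.1 with the mimic. Divided by the length of the longest coding mRNA, a choice made after seeing the data, RRAS2 averaged 25.5% of the 5 RAS proteins, above the 16.6% by RPKM. RRAS then averaged 20.2%, below 26.6%, and NF1 averaged 25.0% of NF1 + RASA1, above 17.8%. The difference of SOS1 between the groups was then -2.71 percentage points.

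**Figure D4:**
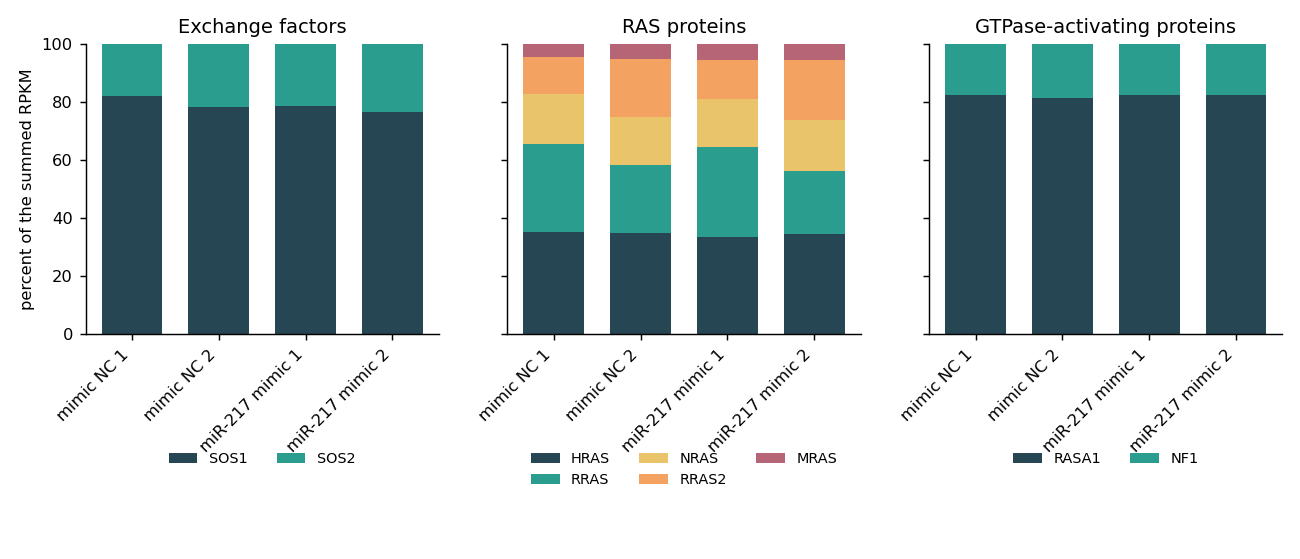
Percent of the summed RPKM taken by each gene within the exchange factors (SOS1 + SOS2), the 5 RAS proteins and the GTPase-activating proteins (NF1 + RASA1 only), with 1 stacked bar per library. RRAS takes 30.2% and 31.1% in the libraries of number 1 and 23.6% and 21.5% in those of number 2, whereas SOS1 takes 76.7% to 82.0% of its pair.

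RRAS and RRAS2 were the members that differed between the replicate numbers, in opposite directions. At an adjusted p of 0.05 (limma, with the treatment as a second term), 2 of the 9 genes were called, where 1163 of 13871 genes (8.38%) were called, 512 higher and 651 lower in number 2. RRAS was lower in number 2, by -26.3% with mimic NC and -37.9% with the mimic, a log2 difference of -0.53 (SE 0.09, adjusted p of 0.0446 by limma). RRAS2 was higher, by 48.7% and 35.9%, a log2 difference of 0.46 (SE 0.07, adjusted p of 0.0432 by limma). Both calls were lost without the filter on low values (adjusted p of 0.140 and 0.132 by limma, with the same log2 differences), and both were made in the other fits (adjusted p of 0.0078 and 0.0043 with limma voom on the recovered reads). NRAS and HRAS were also lower in both libraries of number 2, with log2 differences of -0.08 and -0.10 and adjusted p of 0.501 and 0.345 by limma. SOS1 differed by -0.15 between the numbers (adjusted p of 0.256 by limma), less than its difference of -0.34 with the mimic. The difference with the mimic was fitted without a second term, so the p-values of these fits are not on the same footing.

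Cell type markers moved with the number as well. Of the luminal breast markers, KRT8 was at 421 and 393 RPKM in number 1 and at 165 and 154 in number 2, and as it made up most of the list, the summed level of the 6 luminal markers in the table was 429 and 402 against 172 and 164. EPCAM, of the same list, was at 3.90 and 5.16 RPKM in number 1 and at 5.06 and 7.41 in number 2. The 5 mesenchymal markers summed to 220.3 and 219 RPKM in number 1 and to 152 and 181 in number 2, mainly through MSN (157 and 154 against 93.5 and 104). CAV1 (7.92 and 7.75 against 5.17 and 5.35) was also lower in number 2, whereas CD44 (13.5 and 14.6 against 17.3 and 25.96) and AXL (6.27 and 6.23 against 8.12 and 8.71) went the other way. VIM overlapped between the numbers, and ESR1 and GATA3 stayed at or below 0.104. Blood markers summed to at most 2.38 RPKM and endothelial markers to at most 3.60. The part of these in the differences of RRAS and RRAS2 was not tested.

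**Figure D5:**
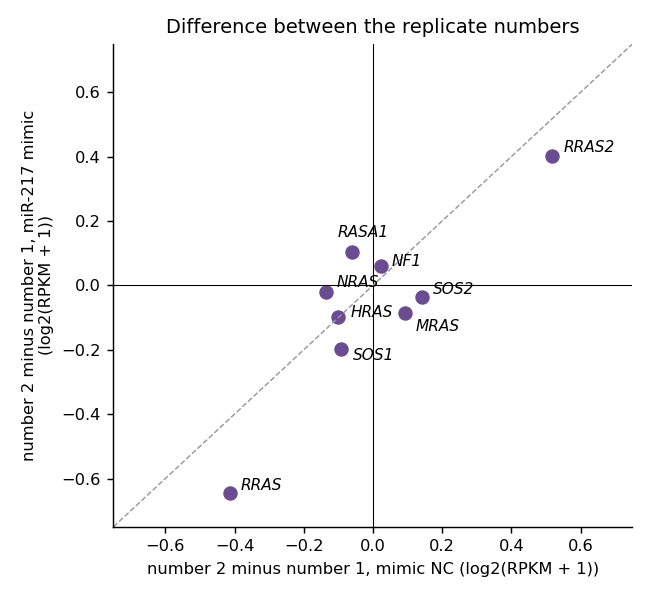
Difference in log2(RPKM + 1) of number 2 minus number 1 within mimic NC (x axis) and within miR-217 mimic (y axis), with 1 point per gene; the dashed line marks equal differences. RRAS (-0.41 and -0.65) and RRAS2 (0.52 and 0.40) lie far out along the line, and the other 7 genes lie within 0.20 of 0 on both axes.

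Other genes of the RAS cycle were read from lists of 76 genes, of which 75 were in the table and 56 were tested. None was called at an adjusted or unadjusted p of 0.05, 14 of the 56 lay lower and 4 higher in both mimic libraries, where 13.5% and 9.72% of all genes did, and their median log2 difference was -0.05, compared with -0.02 over all genes tested. None of the 6 other RAS exchange factors (the RASGRP and RASGRF genes) reached a mean of 1 RPKM, so that SOS1 and SOS2 were the exchange factors of this set at a tested level. Of the 10 adaptors tested, 4 were lower in both mimic libraries and none was higher (13.5% and 9.72% over all genes), with CRK the lowest (10.8 and 10.3 RPKM with mimic NC, 10.3 and 8.39 with the mimic) and GAB2 the highest (log2 difference 0.05).

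Of the 4 genes of the SHOC2 phosphatase complex, which works with MRAS, SHOC2 and 1 other were lower in both mimic libraries and PPP1CC was higher (13.5% and 9.72% over all genes). SHOC2, the scaffold, was at 15.2 and 16.9 RPKM with mimic NC and at 13.4 and 12.5 with the mimic (log2 difference -0.29, SE 0.12, unadjusted p of 0.0686 by limma), opposite in direction to MRAS. PPP1CC, a catalytic subunit, was at 6.71 and 5.46 RPKM with mimic NC and at 7.14 and 7.26 with the mimic (log2 difference 0.22). Of 12 effectors, 2 were lower in both mimic libraries and none was higher, near the 13.5% of all genes that were lower. PIK3CA, the catalytic subunit of a lipid kinase that RAS binds, was at 2.54 and 2.53 RPKM with mimic NC and at 1.98 and 1.89 with the mimic (log2 difference -0.27, unadjusted p of 0.0672 by limma). The highest effector was RIN1 (log2 difference 0.19), whose groups overlapped.

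Of 9 related small GTPases, 2 were lower and 1 was higher in both mimic libraries, near the 13.5% and 9.72% of all genes. RAP2B was at 3.79 and 3.95 RPKM with mimic NC and at 4.59 and 5.39 with the mimic (log2 difference 0.30, unadjusted p of 0.0711 by limma), and RIT1 was the lowest at -0.19. Of 5 other GTPase-activating proteins, all overlapped between the groups, from DAB2IP at -0.13 to RASAL2 at 0.03, and so did LZTR1 (-0.10) and SPRED2 (0.17), brakes that act on RAS stability and on RAF. Of 9 genes of lipid modification and transport, LYPLA2, a depalmitoylating enzyme, was the lowest (-0.23) and PDE6D, which carries farnesylated RAS, the highest (0.07). Of 5 genes of the kinase cascade downstream of RAF, MAP2K1 was the lowest (-0.20). Between the replicate numbers, none of the 56 genes passed an adjusted p of 0.05, where 8.38% of all genes did. RCE1, of the list of lipid modification and transport, was the nearest, with a log2 difference of -0.46 (adjusted p of 0.0534 by limma). SPRED2 came next, at 0.97 and 1.27 RPKM in number 1 and 1.79 and 2.07 in number 2 (adjusted p of 0.0545 by limma).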

How the data were processed

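RNA-seq was measured in 4 libraries of MDA-MB-231, 2 with mimic NC and 2 with miR-217 mimic, grouped by their labels. The authors deposited RPKM values with exon coordinates and summed exon lengths. The submitters' processing notes name Trimmomatic 0.36, featureCounts, Subread 1.5.1, edgeR 3.12.1 and hg38, and the aligner and the strand setting are not given in the sources used here. No gene listed was without reads in all libraries. Multiplied by length, 100% of the values were whole reads within 0.05 read.

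RPKM are not counts, and so log2(RPKM + 1) was fitted for the 13871 genes whose RPKM averaged 1 or more, with limma-trend (version 3.58.1, R 4.3.3), two-sided and without a replicate term. The numbers were compared with the treatment as a second term. Proportions were compared by exact permutation. Alternatives were a filter at 5 RPKM or none, a pseudocount of 0.1, median centring, limma voom on the recovered reads, a replicate block, leaving out each library, and shares of reads. The limma-trend fits were tested on simulated data. Intervals at 95% are limma's. Seed matches were located in GENCODE 29 transcripts, and plots were made with matplotlib 3.10.9 in Python 3.11.15. The genes and lists were chosen with earlier results of these data known. In each list the genes with the highest and the lowest log2 difference were named, with the 3 genes most like SOS1 and genes that overlap or copy a member. RASA3 was named in addition for its level, and RCE1 for its difference between the numbers. Other RAS genes and 1 gene that the rule names are not reported here.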

Additional observations from a re-analysis of the deposited data

How the results depend on the processing

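In every alternative run, no member and no list gene passed an adjusted p of 0.05 with miR-217 mimic, and SOS1, SOS2, MRAS and NF1 kept their direction wherever they were tested, which with the filter at 5 RPKM was SOS1 alone of these. At an unadjusted p under 0.05, where 165 genes, no member and no list gene passed, the counts were 877 genes, 1 member (SOS1) and 1 list gene without the filter, 48 genes with the filter at 5 RPKM, and 82 genes, 1 member (SOS1) and 1 list gene with limma voom on the recovered reads. Leaving out 1 library gave 93 to 866 genes and 0 to 1 members, the highest without miR-217 mimic replicate 1, where the member was SOS1 (log2 difference -0.43); in these fits 1 group is a single library, which is assumed to vary like the other group. With 2 pairs, the numbers are not known to pair the samples. The fit with the replicate block passed 1046 genes, 1 member (SOS1, unadjusted p of 0.0101, adjusted p of 0.633 by limma) and 3 list genes (RAP2B, SHOC2 and PIK3CA). With limma voom on the recovered reads and the replicate block it was 1261 genes, 2 members (SOS1 and MRAS) and 6 list genes, and 1 gene that is no member passed an adjusted p of 0.05. Small differences changed sign. The log2 difference of HRAS with the mimic was 0.014 with median centring, and that of RRAS was 0.011 with median centring, 0.0054 with limma voom and 0.0099 with limma voom and the replicate block. With 1 library left out in turn, the log2 difference ran from -0.178 to -0.035 for SOS2, from 0.13 to 0.221 for MRAS, from -0.087 to -0.026 for NF1, from -0.024 to 0.112 for NRAS, from -0.063 to 0.039 for HRAS, from -0.338 to 0.308 for RRAS, from -0.166 to 0.353 for RRAS2 and from -0.094 to 0.0099 for RASA1. The difference in share then ran from -4.29 to -0.70 percentage points for SOS1, from -0.539 to 0.972 for NRAS, from -5.47 to 4.20 for RRAS and from -2.86 to 4.39 for RRAS2, and by share of reads it was -0.286 for NRAS. Between the numbers, 1163 genes and 2 members were called, compared with 3 genes and 0 members without the filter and 3280 genes with limma voom on the recovered reads, and SOS2 (-0.037) and MRAS (-0.087) within miR-217 mimic and RASA1 (-0.059) within mimic NC had the opposite sign. The cause of these changes was not tested. Depth limits SOS2 most, with 362 reads in the smallest library.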
